A study of Mus musculus domesticus and Mus musculus domesticus x Mus musculus castaneus and Mus musculus castaneus with 10 samples.

Results

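Ehmt2 and the other genes of histone H3 lysine 9 (H3K9) methylation listed with it were followed in homozygous stem cells of CAST (CAST/EiJ, Mus musculus castaneus). The set was named by gene symbol and not by expression. It held 10 genes, namely the methyltransferases Ehmt1, Ehmt2, Setdb1, Suv39h1 and Suv39h2, the partner proteins Wiz and Trim28, and the readers of the mark Cbx1, Cbx3 and Cbx5. Of these, 9 were matched to identifiers among the 26808 genes listed, of which 17404 had at least 1 count, and Cbx3 was not analysed here.

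Methylation of H3K9 marks silent chromatin. Ehmt1 (GLP) and Ehmt2 (G9a) form a heterodimer that places the mono- and dimethyl marks in euchromatin, and the zinc finger protein Wiz binds that dimer. Setdb1 is brought to retroviral elements and imprinted regions by Trim28 (KAP1), the corepressor of KRAB zinc finger proteins, while Suv39h1 and Suv39h2 trimethylate the repeats around centromeres. Cbx1, Cbx3 and Cbx5 encode the HP1 proteins, which bind the methylated tail. In mouse stem cells these enzymes keep endogenous retroviruses and germline genes silent. Ehmt2 is also a regulator whose binding sites the study examined upstream of translation genes.

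The values come from 2 RNA-seq libraries of undifferentiated CAST induced pluripotent stem cells. The cells had been reprogrammed from embryonic fibroblasts with retroviral Oct4, Sox2 and Klf4, grown with LIF and serum on irradiated fibroblast feeders, and depleted of feeders before extraction. Of the 10 samples in the study's list, the 4 of the 129S6/SvEv line and the 4 of the F1 hybrid 129CAS were not analysed here. No genotype was therefore compared, and no p-value is given. The labels give each CAST library a batch entry of its own, so batch and replicate cannot be told apart, and the sources used here do not say whether the libraries came from separate lines. The libraries held 14460393 counts in replicate 1 and 13728098 in replicate 2. Each count was divided by its library total and multiplied by 1000000 to give CPM, the level used throughout. The limit of detection was set at 3 counts, equal to 0.207 CPM in replicate 1 and 0.219 CPM in replicate 2.

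The identity of the cells was checked against marker genes. Of 10 markers of pluripotent stem cells, the 8 matched genes were all detected and summed to 4444 CPM in replicate 1 and 3188 CPM in replicate 2. By the mean of both libraries, the highest per kilobase of exon were Pou5f1, which encodes Oct4 (243 and 325), Zfp42, a zinc finger marker of the undifferentiated state (304.5 and 262), and Klf2, a factor of naive pluripotency (348 and 153), and Tdgf1, a co-receptor of Nodal, was lowest (70.3 and 45.5). Within libraries the order differed, and Sox2 (254 and 184) stood above Pou5f1 in replicate 1 and above Klf2 in replicate 2. Of the 8 genes, 7 were higher in replicate 1 and Pou5f1 was higher in replicate 2, and Klf2 and Klf4 were more than 2-fold apart. Whether transcripts of the reprogramming vectors contributed to the counts of Pou5f1, Sox2 and Klf4 was not tested. The 12 markers of fibroblast feeders summed to 3485 CPM in replicate 1 and to 1384 CPM in replicate 2, with Col1a1 the most abundant at 1726 and 777 CPM. Of the 11 with enough counts for a ratio, 9 were higher in replicate 1 (10 with library totals), and the collagen genes Col1a1, Col1a2, Col3a1 and Col5a1, the matrix genes Fbn1 and Lox and the surface marker Thy1 were more than 2-fold higher there, as were 4.98% of all 13824 genes tested. Dcn, a defining fibroblast marker, stood at 3.25 and 3.21 CPM, and Twist2, at 3 and 2 counts, was not above the limit of detection. In bulk samples, fewer cells of a type and less RNA per cell cannot be told apart. Of 8 neuronal markers, Syt1 had no count in either library, which allows up to 0.207 and 0.219 CPM, and Snap25 had 7 and 2 counts. Tubb3 (81.2 and 44.2 CPM) and Stmn2 (124 and 117 CPM) were the only neuronal markers above 10 CPM in both libraries, and Nefl, a neurofilament gene and the next per kilobase, had 106 and 84 counts.

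The 9 genes were all expressed in both libraries, over a wide range. Together they held 4389 ± 206 CPM (SD, n = 2), with 4534 CPM in replicate 1 and 4243 CPM in replicate 2. Trim28 alone took 63.7% of this sum in replicate 1 and 60.8% in replicate 2. Without Trim28, the remaining genes summed to 1648 and 1664 CPM. This sum was nearly level although its members were not, since Ehmt2 and Cbx1 were higher in replicate 2 and Cbx5 and Ehmt1 in replicate 1.

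Levels of different genes were compared as CPM per kilobase of the union of annotated exons. On this scale Trim28 was highest, Ehmt2 and the HP1 genes Cbx1 and Cbx5 followed, Setdb1 and Ehmt1 were intermediate, and Wiz, Suv39h2 and Suv39h1 were lowest. For every pair of neighbours in this order except Cbx1 and Cbx5, both values of the higher gene lay above both values of the lower gene. The same sequence of groups was found in the means over both libraries with the longest protein-coding transcript or the coding length as the measure of length, but the order inside a group was not stable. With the longest transcript, Cbx1 (149) stood above Ehmt2 (111), and Suv39h1 (5.85) stood beside Suv39h2 (5.84). With coding length, Cbx5 (992) and Cbx1 (488) both stood above Ehmt2 (118), and Suv39h2 (17.7) stood above Wiz (15.1). Trim28 was still highest with coding length, at 1092, but lay close to Cbx5.

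**Figure D1:**
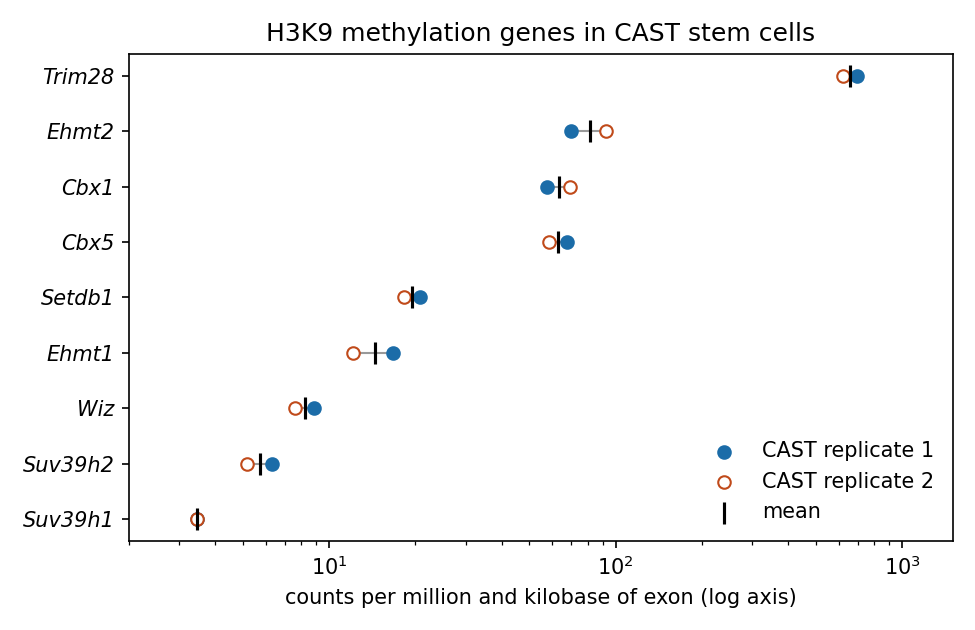
Levels of the 9 genes in CAST stem cells, as CPM per kilobase of exon on a log axis. Each point is a library and the black bar is the mean of both. On this measure of length Trim28, at 694 and 620, lies apart from all others, and only Cbx1 and Cbx5 overlap as neighbours.

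Ehmt2 (ENSMUSG00000013787, chr17:34898469-34914052 of GRCm38, plus strand, 27 exons in its longest coding transcript) is the catalytic subunit best known for dimethylation of H3K9. It had 5559 counts in replicate 1 and 6979 in replicate 2, or 384 CPM (95% Poisson interval 374 to 395) and 508 CPM (497 to 520). The mean was 446 ± 87.6 CPM (SD, n = 2), and per kilobase of exon the libraries stood at 70.0 and 92.6. Replicate 2 was the higher, and the intervals, which cover counting error only here and below, did not overlap. Of the 13824 genes whose counts over both libraries reached 10, 4.70% in replicate 1 and 3.65% in replicate 2 had a higher level per kilobase than Ehmt2.

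Ehmt1 (ENSMUSG00000036893, chr2:24789928-24919614, minus strand, 27 exons), its partner in the heterodimer, was less abundant and differed the other way between the libraries. It had 1962 and 1348 counts, equal to 136 CPM (130 to 142) in replicate 1 and 98.2 CPM (93.0 to 104) in replicate 2, with a mean of 117 ± 26.5 CPM (SD, n = 2). Per kilobase, Ehmt2 exceeded Ehmt1 by 4.19-fold in replicate 1 and by 7.66-fold in replicate 2. With coding length the excess was 2.91-fold and 5.31-fold. Ehmt2 thus had the more abundant transcript of the partners in both libraries, while the size of the excess depended on the library by more than 1.5 times. Amounts of the proteins were not measured.

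Wiz (ENSMUSG00000024050, chr17:32354055-32389439, minus strand), which joins the Ehmt1 and Ehmt2 dimer to DNA through its zinc fingers, had 1187 and 963 counts. Its level was 82.1 CPM (77.5 to 86.9) in replicate 1 and 70.2 CPM (65.8 to 74.7) in replicate 2, with a mean of 76.1 ± 8.44 (SD, n = 2). Ehmt2 exceeded Wiz by 7.89-fold and 12.2-fold per kilobase in the respective libraries. The level of Wiz is uncertain because its exons share 2040 bases with the noncoding gene Gm26858 on the opposite strand, and the strand setting of the counting is not given in the sources used here.

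Trim28 (ENSMUSG00000005566, chr7:12999114-13031035, plus strand), the scaffold that recruits Setdb1, had 41733 counts in replicate 1 and 35407 in replicate 2. These equal 2886 CPM (2858 to 2914) and 2579 CPM (2552 to 2606), with a mean of 2733 ± 217 (SD, n = 2). Per kilobase it was at place 18 in replicate 1 and place 45 in replicate 2 among the 13824 genes. Setdb1 (ENSMUSG00000015697, chr3:95323525-95357202, minus strand), the methyltransferase of this pair, had 2059 and 1713 counts, or 142 and 125 CPM and a mean of 134 ± 12.4 (SD, n = 2). Trim28 exceeded Setdb1 per kilobase by 33.4-fold in replicate 1 and 34.1-fold in replicate 2, and by between 29.1-fold and 32.4-fold over both libraries with the other measures of length. Of the 8 ratios between members that were computed, this one differed least between the libraries, whereas Trim28 exceeded Ehmt2 by 9.91-fold in replicate 1 and by 6.70-fold in replicate 2.

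The Suv39h genes were the least abundant of the set per kilobase of exon, although Suv39h2 stood above Wiz with coding length. Suv39h1 (ENSMUSG00000039231, chrX:8061171-8074760, minus strand) had 263 and 251 counts, equal to 18.2 CPM (16.1 to 20.5) in replicate 1 and 18.3 CPM (16.1 to 20.7) in replicate 2. Suv39h2 (ENSMUSG00000026646, chr2:3455815-3475031, minus strand) had 402 and 312 counts, equal to 27.8 CPM (25.2 to 30.7) and 22.7 CPM (20.3 to 25.4). The means were 18.2 ± 0.0679 CPM for Suv39h1 and 25.3 ± 3.59 CPM for Suv39h2 (SD, n = 2). The libraries were level for Suv39h1, and the intervals overlapped narrowly for Suv39h2. Per kilobase, Suv39h2 exceeded Suv39h1 by 1.83-fold and 1.49-fold on the union of exons, and by 1.32-fold and 1.08-fold with coding length, but the ratio was 1.10 and 0.895 with the longest transcript, so that the order depended on the measure of length and the library. Setdb1 exceeded Suv39h1 by 6.02-fold and 5.25-fold and Suv39h2 by 3.30-fold and 3.53-fold per kilobase of exon. These ratios depend on the measure of length, and with coding length they were 2.47 and 2.16 for Suv39h1 and 1.87 and 2.00 for Suv39h2. With the longest transcript they were 5.24 and 4.57 for Suv39h1, and for Suv39h2 they were larger than on the union of exons, at 4.76 and 5.10. Exons of Suv39h1 share 767 bases with the antisense gene Gm14820, and those of Suv39h2 share 357 bases with Dclre1c, which had 299 and 191 counts.

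Among the HP1 genes, Cbx5 (HP1 alpha; ENSMUSG00000009575, chr15:103191544-103239816, minus strand) had the more counts, at 8835 and 7221, equal to 611 and 526 CPM and a mean of 569 ± 60.1 (SD, n = 2). Cbx1 (HP1 beta; ENSMUSG00000018666, chr11:96789127-96808640, plus strand) had 3568 and 4051 counts, equal to 247 and 295 CPM and a mean of 271 ± 34.2 (SD, n = 2). Per kilobase of exon the genes overlapped, with Cbx5 at 67.8 and 58.4 and Cbx1 at 57.7 and 69.1. The ratio of Cbx1 to Cbx5 was 0.851 in replicate 1 and 1.18 in replicate 2. It was 1.95 and 2.71 with the longest transcript and 0.417 and 0.579 with coding length, since Cbx5 has a transcript of 8803 bases around a coding sequence of 573. Which HP1 transcript was the more abundant therefore could not be stated.

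Counts of paralogs can be told apart only where their sequences differ, so the coding sequences were compared. Ehmt1 and Ehmt2 were identical at 62.2% of 3671 aligned coding bases, Suv39h1 and Suv39h2 at 61.8% of 1201, and Cbx1 and Cbx5 at 70.2% of 543. The longest run of identical bases was 20 in the Ehmt pair, 26 in the Suv39h pair and 20 in the Cbx pair. No stretch of 75 bases in the longest coding transcript of Ehmt1, Ehmt2, Trim28, Cbx1 or Cbx5 recurred in a transcript of another gene on either strand. Such stretches made up 38.1% of the transcript in Wiz, 19% in Suv39h1, 6.70% in Setdb1 and 3.13% in Suv39h2. The stretches were shared with Gm26858 for Wiz, Gm14820 for Suv39h1, Dclre1c for Suv39h2, and Cers2, Gm37500 and Gm4349 for Setdb1, and in none of these cases with another member of the set.

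The longest shared runs are printed to show how soon the paralogs diverge on either side. Capitals mark the shared run, lower case the 20 coding bases before and after it, and all sequences are from the GENCODE M21 transcripts of GRCm38, 5′ to 3′ on the strand of the gene. For Ehmt1 (chr2:24839741-24840679, minus strand) and Ehmt2 (chr17:34906251-34906392, plus strand) the stretch joins exons 11 and 12 of 27.
Ehmt1: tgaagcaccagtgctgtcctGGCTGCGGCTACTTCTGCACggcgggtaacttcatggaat
Ehmt2: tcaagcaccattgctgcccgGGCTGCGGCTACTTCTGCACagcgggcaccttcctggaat

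The Suv39h stretch lies in exon 4 of 6 in both genes, at chrX:8063956-8064021 for Suv39h1 and at chr2:3462526-3462591 for Suv39h2, both on the minus strand.
Suv39h1: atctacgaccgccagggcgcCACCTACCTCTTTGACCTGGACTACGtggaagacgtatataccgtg
Suv39h2: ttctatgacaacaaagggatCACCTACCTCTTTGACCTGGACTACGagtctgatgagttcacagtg

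The Cbx stretch lies in exon 2 of both genes, at chr11:96800842-96800901 on the plus strand for Cbx1 and at chr15:103213118-103213177 on the minus strand for Cbx5.
Cbx1: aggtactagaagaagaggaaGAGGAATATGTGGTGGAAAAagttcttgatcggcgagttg
Cbx5: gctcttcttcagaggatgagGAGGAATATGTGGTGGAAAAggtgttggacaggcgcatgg

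The spread between the CAST libraries was then measured for each gene. Of the 9 genes, 0 were at least 2-fold apart, where 9.11% of the 13824 genes tested were, and 4.29% of the 8723 genes whose mean reached 10 CPM. With so few genes, a count of 0 is close to these shares. The median size of the log2 ratio was 0.17 over the 9 genes and 0.25 over those 8723 genes, and Ehmt2, Ehmt1 and Cbx1 lay above the latter. These ratios are of replicate 1 to replicate 2 on the log2(CPM + 0.5) scale with TMM library sizes. They compare replicates of a group and not conditions.

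Ehmt1 had the largest positive ratio, at 0.41 (0.31 to 0.51), and Ehmt2 the largest negative one, at -0.46 (-0.51 to -0.41), so that the partners of the heterodimer marked the ends of the set. Cbx1 was also higher in replicate 2, with a ratio of -0.32 (-0.38 to -0.25). Cbx5 (0.16), Wiz (0.17), Setdb1 (0.13), Trim28 (0.10, or 0.16 with library totals) and Suv39h2 (0.23) were higher in replicate 1, with intervals above 0. The interval of Suv39h1, -0.32 to 0.19, included 0. A ratio as large as that of Ehmt2 in either direction was found in 23.5% of the 8723 genes, and one as large as that of Ehmt1 in 28.7%. The feeder markers had a median log2 ratio of 1.30 over the 11 tested, of which 7 were more than 2-fold higher in replicate 1. Postn (0.92) and Lum (0.46) were also higher there. Dcn (-0.03, at 47 and 44 counts) and Pdgfrb (-0.15, at 89 and 91 counts) were not. The pluripotency markers, with 7 of 8 higher in replicate 1, had a median ratio of 0.57, and Pou5f1 stood at -0.48. The part of either list in the ratios of the set was not tested.

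**Figure D2:**
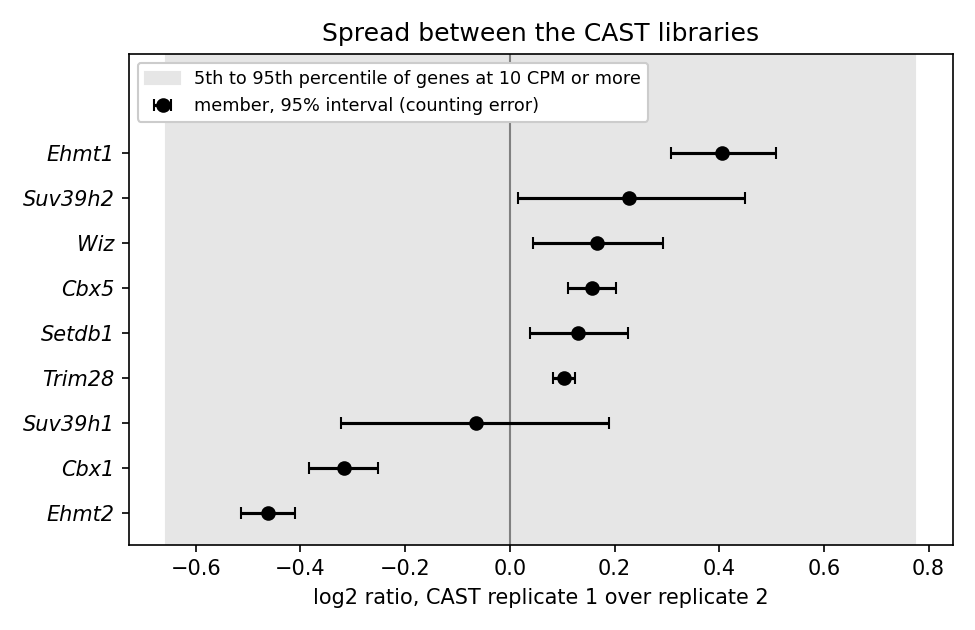
Log2 ratio of CAST replicate 1 to replicate 2 for the 9 genes, with 95% intervals that cover counting error only. The grey band runs from the 5th to the 95th percentile of the 8723 genes at 10 CPM or more (-0.66 to 0.77), and all 9 points lie inside it, with Ehmt2 and Ehmt1 at opposite ends.

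Other genes that act with H3K9 methyltransferases were also expressed. All 26 listed partners had more than 3 counts in both libraries and summed to 5480 CPM in replicate 1 and 4619 CPM in replicate 2. The highest per kilobase were Uhrf1, which reads methylated H3K9 and recruits Dnmt1 (145 and 124), Dnmt1, the maintenance DNA methyltransferase (106 and 95.1), and Zfp57, a KRAB zinc finger protein that brings Trim28 to imprinted regions (92.8 and 88.8). Mecom, a zinc finger regulator with a PR domain, was lowest, at 14 and 6 counts. None of the 26 was 2-fold apart with TMM sizes, where 9.11% of all genes tested were, though Resf1, a partner of Setdb1 in silencing of retroviruses, was with library totals, being higher in replicate 1. Their median ratio was 0.17 with TMM sizes, against 0.004 over all 13824 genes, and 0.22 with library totals, against 0.06. Of the 26, 23 were higher in replicate 1 and 3 in replicate 2 under all 3 scalings. Of all genes tested, 6963 were higher in replicate 1 and 6861 in replicate 2 with TMM sizes. The feeder markers (median 1.30, 9 of 11 higher in replicate 1) and the pluripotency markers (median 0.57, 7 of 8) differed in the same direction. So did the neuronal markers that were tested (median 0.23, 5 of 6). The part of these lists in the result was not tested.

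The enzymes that remove H3K9 methylation were mostly detected. Of the 11 listed demethylases, 10 had more than 3 counts in both libraries, and Kdm4d, at 0 and 1 counts, was not detectable at this depth. Kdm1a (LSD1), which acts on mono- and dimethyl marks, was highest per kilobase at 74.6 and 73.8. It was followed by Kdm3a, a demethylase of H3K9 mono- and dimethylation, at 28.4 and 39.6, and by Kdm4c, which acts on trimethyl marks, at 24.6 and 31.2. Of the 10 tested, 4 were higher in replicate 1 and 6 in replicate 2 with TMM sizes, but 6 and 4 with library totals and 5 and 5 with DESeq2 size factors, so no direction can be given. None of the 10 was 2-fold apart, which is close to the 9.11% of all genes tested, and their median ratio was -0.02 against 0.004 over all genes.

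Germline genes listed as silenced by H3K9 methylation in stem cells were detected, all 14 having more than 3 counts in both libraries. The list was named from prior knowledge, and whether the mark silenced these genes in these cells was not tested. The 14 genes summed to 658 CPM in replicate 1 and 1204 CPM in replicate 2. Most of this was Dazl, an RNA-binding protein of germ cells, with 6104 and 11847 counts, equal to 422 and 863 CPM. Per kilobase Dazl stood at 111 and 226, above Ehmt2 in both libraries. Its mean of 642.5 CPM was near that of Pou5f1 (638.9 CPM), so the name of the list does not describe Dazl in these cells. Stk31, a testis kinase, followed at 30.1 and 32.3 per kilobase. Sycp1, a protein of the synaptonemal complex, was next by the mean of both libraries, at 6.52 and 21.3, although Ddx4 (10.5) and Smc1b (9.31) stood above it in replicate 1. Wfdc15a was lowest by that mean, at 5 and 12 counts.

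These germline genes were higher in replicate 2 in 14 of 14 cases with TMM and DESeq2 sizes and in 13 of 14 with library totals, where Tex11 turned. Their median ratio was -0.53, against 0.004 over all genes tested. In 5 of the 14 the libraries were at least 2-fold apart, all higher in replicate 2, as were 4.13% of all 13824 genes tested. They were Sycp1 (335 and 1039 counts), Taf7l, a testis paralog of a TFIID subunit (58 and 190), Slc25a31, a carrier of ADP and ATP in the germline (56 and 141), Mael, of the piRNA pathway (24 and 55), and Dazl. Of the 9 members, 3 were higher in the same library and 6 in the other, under all 3 scalings. The 3 were Ehmt2, Cbx1 and Suv39h1, the last with an interval that included 0. For so few genes this is close to the split over all genes tested. Of those, 6963 were higher in replicate 1 and 6861 in replicate 2 with TMM sizes. With 1 library on each side these differences have no replicate check, and the feeder markers, at 3485 and 1384 CPM, differed between the same libraries. The pluripotency markers, at 4444 and 3188 CPM, did so too, with 7 of 8 higher in replicate 1 and a median ratio of 0.57. The part of either list in the result was not tested.

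Of 7 genes of the 2-cell stage that were listed, only Zfp352 was analysed here. It had 3 and 2 counts, which is not above the limit of detection.

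Genes that start within 1 kb of a member on the opposite strand were taken as neighbours. Hnrnpa1, an RNA-binding protein whose nearest start lies 616 bases from one of Cbx5, had 1081 and 1064 CPM, and Hnrnpa2b1, which starts 466 bases from Cbx3, had 1418 and 1494 CPM. With TMM sizes all 4 neighbours tested were higher in replicate 2, by a ratio of -0.035 for Hnrnpa1 and -0.13 for Hnrnpa2b1. However, with library totals 1 of the 4 was higher in replicate 1. Of all 13824 genes tested, 6861 were higher in replicate 2 with TMM sizes, so for so few neighbours no direction can be given. The neighbours of Ehmt2 and Trim28 had few counts, with C2, a complement protease, at 16 and 16 counts and Slc27a5, a bile acid ligase, at 4 and 10 counts. The counts of C2 were equal, so its ratio of -0.09 reflects library size only. The microRNA Gm22201, which starts 61 bases from a start of Wiz, had no count in either library, which allows up to 0.207 and 0.219 CPM.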

How the data were processed

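The authors deposited read counts per Ensembl gene, without normalization. How the counts were made is given in different ways. For the CAST samples, the submitters' processing notes name TopHat2 2.1.1, SAMtools and HTSeq with GRCm38 (mm10), whereas the study's methods name STAR both for mapping to the CAST/EiJ genome and for counting, with reads of more than 1 locus discarded. These accounts differ, and which of them holds for the deposited counts was not settled, and whether mapping to the reference strain lowered counts of genes that differ from it was not tested. Counts of 2 columns matched CAST samples by title, and 7 other columns of per-sample values matched no sample and were not used. A planned test between genotypes was not run, since no column of counts used here matched the samples of the other genotypes.

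The members and gene lists were chosen with earlier results of these data known. Symbols, exons and coordinates were from GENCODE M21 (GRCm38), which named all 26808 genes. All members are named, as are the 3 highest and the lowest gene of each list and those at least 2-fold apart between the libraries. Other markers and overlapping genes were named after their values were seen, as were Tex11, Ddx4 and Smc1b. CPM used library totals (14460393 and 13728098 counts). Ratios were taken on log2(CPM + 0.5) with TMM sizes (edgeR 4.0.16, R 4.3.3) for genes whose summed counts reached 10. Intervals (95%) were exact Poisson for counts and exact conditional binomial for ratios, and cover counting error only. Alternatives were library totals, DESeq2 1.42.0 size factors and pseudocounts of 0.1 and 2 CPM. A filter of at least 1 count in total, other gene lengths and each library left out were also run. The ratio script was tested on simulated data. Sequences were aligned with Biopython 1.88, tables and intervals were made with pandas 2.3.3, scipy 1.17.1 and numpy 2.4.6, and figures with matplotlib 3.10.9, in Python 3.11.15.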

Additional observations from a re-analysis of the deposited data

How the results depend on the processing

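The summed level of the set, 4389 CPM, moved by less than the spread between the libraries with TMM sizes and with DESeq2 size factors, and ranged from 4243 to 4534 CPM when 1 library was left out. The number of members at least 2-fold apart was 0 under all 5 alternatives run. These were library totals, DESeq2 size factors, pseudocounts of 0.1 and 2 CPM, and a filter of at least 1 count in total. The number of all genes so far apart ranged from 540 with a pseudocount of 2 CPM to 1811 with 0.1 CPM, against 1259. All 9 log2 ratios kept their sign under the 4 other scalings and pseudocounts, with a largest move of 0.06. With library totals, 3 moved outside their counting intervals, Ehmt2 to -0.40, Trim28 to 0.16 and Cbx5 to 0.22. Of the 36 pairs of members, 2 changed order per kilobase with the longest transcript and 4 with coding length. None did when bases shared with other genes were taken off the gene length, and 0 or 1 did when a library was left out. Reads in the shared bases stayed in the counts, so their part in the order was not tested. Coding length and shared bases were chosen as alternatives after the data were seen. Coding length of RefSeq proteins was not run, since that table was not used here. No paired analysis was possible because the columns used belong to 1 group. Depth limits statements on Kdm4d, Zfp352, Twist2 and Syt1, and on Snap25 in replicate 2, to their limits of detection.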
